A study of Homo sapiens with 16 samples.

Results

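The glucocorticoid receptor gene NR3C1 and 5 genes known to respond to its hormone, TSC22D3, FKBP5, PER1, ZBTB16 and DUSP1, were followed across 16 human cell lines of T-ALL, an acute leukemia that arises from developing T cells. Members were found by gene symbol in the array annotation, and 5 of the 6 genes had at least 1 probe set naming only that gene, 15 probe sets in all. PER1, a clock gene that glucocorticoid induces, was listed on 4 probe sets, each of which also named another gene, so it has no value here. The whole table held 19775 genes with a probe set of their own. Where a gene had several, the probe set with the highest mean log2 value is called its main probe set.

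The lines were ALL-SIL, CCRF-CEM, DU528, HSB-2, JURKAT, KOPT-K1, LOUCY, MOLT-16, MOLT-4, P12-ICHIKAWA, PEER, PF-382, SKW-3, SUP-T11, SUP-T13 and TALL-1. Each is an established leukemia line, so a value describes a single line and not a type of patient. For every line, a culture was seeded in 10 ml of medium with 10% fetal bovine serum, and total RNA was taken after 24 hours. No hormone or other agent was added, and any steroid carried in by the serum was not measured. Each line was hybridised once, to 1 Affymetrix array, so there is no replicate error within a line and every SD below is a spread between different lines.

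The glucocorticoid receptor is a nuclear receptor that waits in the cytoplasm in a complex of chaperones. Bound to hormone it enters the nucleus, binds DNA at glucocorticoid response elements and switches genes on or off. In immature T cells and lymphoid leukemia this program ends in growth arrest and cell death, which is why dexamethasone and prednisone are core drugs of leukemia treatment. FKBP5, a co-chaperone that lowers the receptor's affinity for hormone, and TSC22D3, also called GILZ, a leucine zipper protein that restrains inflammatory transcription factors, are among the most widely used readouts of receptor activity. DUSP1 is a phosphatase that switches off MAP kinases, and ZBTB16, also called PLZF, is a zinc finger factor that directs innate-like lymphocytes.

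Promoter windows are shown for FKBP5 and DUSP1. By main probe sets, these members had the widest spread between lines among those with an entry in the RefSeq table of build GRCh38.p14. That table covers 250 bases before to 50 bases after each gene start, and 5 of the 6 members matched it, with 15 windows. Both strands were searched for 4 sets of letters. They were the glucocorticoid response element as GNACANNNTGTNC, its half-site AGAACA, the cyclic AMP response element half-site TGACG, and the E-box CACGTG, the element of clock and MYC-type factors. Capitals below mark every match, and overlapping matches run together. The first FKBP5 window is chr6:35728534-35728833, the second is chr6:35688866-35689165, and the DUSP1 window is chr5:172771146-172771445, all on the minus strand and written 5′ to 3′.
FKBP5 window 1: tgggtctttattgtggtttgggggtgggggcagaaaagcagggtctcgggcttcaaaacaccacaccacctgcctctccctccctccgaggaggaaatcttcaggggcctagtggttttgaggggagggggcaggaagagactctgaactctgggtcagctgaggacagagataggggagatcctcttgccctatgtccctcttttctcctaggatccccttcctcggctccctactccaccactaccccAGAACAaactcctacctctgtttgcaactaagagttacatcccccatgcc
FKBP5 window 2: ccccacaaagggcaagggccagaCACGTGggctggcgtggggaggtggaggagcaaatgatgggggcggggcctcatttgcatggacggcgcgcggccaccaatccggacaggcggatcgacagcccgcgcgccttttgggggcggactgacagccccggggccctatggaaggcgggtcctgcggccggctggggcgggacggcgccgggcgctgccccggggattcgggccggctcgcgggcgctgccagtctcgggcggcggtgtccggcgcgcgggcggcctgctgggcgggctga
DUSP1: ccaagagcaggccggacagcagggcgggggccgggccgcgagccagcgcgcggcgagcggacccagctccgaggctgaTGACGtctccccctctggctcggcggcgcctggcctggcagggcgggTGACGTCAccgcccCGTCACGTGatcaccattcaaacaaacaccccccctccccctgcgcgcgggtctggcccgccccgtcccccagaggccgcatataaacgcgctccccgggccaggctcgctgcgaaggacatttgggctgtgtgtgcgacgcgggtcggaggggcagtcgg
The full response element was in 0 of the 15 windows of the members, and in 0.390% of all 35116 windows in the table. The first FKBP5 window held 1 half-site, letters found in 14.8% of all windows, and the second held 1 E-box (7.26% of all windows). The DUSP1 window held 1 E-box and 4 matches of the cyclic AMP half-site (24.6% of all windows have at least 1), and a pair of these overlap as TGACGTCA. A match of letters describes the sequence only, and no match says nothing of elements outside these windows.

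Levels below are linear intensities as deposited, with a table median of 42.4. A gene is called clearly detected in a line above 4 times that median (169.5). SDs, ranges, correlations and slopes are in units of log2(intensity + 16). Array medians ran from 37.6 in MOLT-16 to 45.0 in LOUCY, and the 3′/5′ ratio of the ACTB controls, which climbs as RNA degrades, from 1.44 in DU528 to 2.03 in MOLT-4. Of 9 T-cell markers, 5 were clearly detected in all 16 lines, among them CD7, LCK and CD3G. CD3E was at 31.2 in MOLT-16, and CD2 and CD5 were at 11.1 and 9.5 in DU528. Of the 18 measured B-cell, myeloid, erythroid and stromal markers only CD79A was clearly detected in every line. Summed, the T-cell markers ran from 10824 to 41432, and the other 4 lists from 391.8 to 1653 (B-cell), 91.8 to 483.7 (myeloid), 67.3 to 318 (erythroid) and 136.8 to 679.9 (stromal).

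NR3C1, the receptor gene itself, was clearly detected in every line, and the highest line exceeded the lowest 4.12-fold on the intensity + 16 scale. It was highest in SUP-T11 (2967), CCRF-CEM (2753) and P12-ICHIKAWA (2267), followed by ALL-SIL (1795). HSB-2 (1529), SUP-T13 (1525), KOPT-K1 (1471), LOUCY (1412), SKW-3 (1301), MOLT-4 (1252) and PEER (1213) formed a dense middle. PF-382 (1055), JURKAT (983), DU528 (854), TALL-1 (823) and MOLT-16 (708) were lowest. The levels formed a continuous series, with no gap over 16.3% of the range, so no set of receptor-low lines stood apart. The SD was 0.59, against a median of 0.35 over all genes, and 23.1% of genes varied at least as much. Among genes that passed the filter of the fits below, the median was 0.41 and 31.3% varied at least as much.

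With 1 array per line, neighbours in such an order cannot be tested against each other. As a guide to technical spread, the 18 hybridisation spike probe sets had SDs over the arrays of up to 0.19, and the 24 poly-A spike probe sets of up to 0.28. For NR3C1, 9 of the 15 neighbouring lines lay closer than 0.19, as did 12 for TSC22D3, 10 for FKBP5, 9 for ZBTB16 and 7 for DUSP1. The counts use the smaller of these SDs and would not fall with the larger. The order is therefore read here only across wider steps.

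The other 4 NR3C1 probe sets did not all give the same picture. Probe set 211671_s_at followed the main one closely (r = 0.994 over 16 lines), while 201866_s_at and 216321_s_at had r = 0.788 with it. All of these had their highest value in SUP-T11. MOLT-16 was the main difference: it was lowest of 16 by the main probe set (708) and by 211671_s_at (691), but ranked 5 of 16 by 216321_s_at (1397) and 4 of 16 by 201866_s_at (330). Probe set 232431_at (r = 0.411) set TALL-1 apart, at 773 against 86.9 to 490.8 in the other lines, although TALL-1 was second lowest or lowest by the other 4 probe sets. NR3C1 makes several transcripts that differ at the 3′ end, and the annotation used here does not say which of them each probe set reads. The low place of MOLT-16 and of TALL-1 thus depends on the probe set, whereas the high values of SUP-T11 and CCRF-CEM do not.

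**Figure D1:**
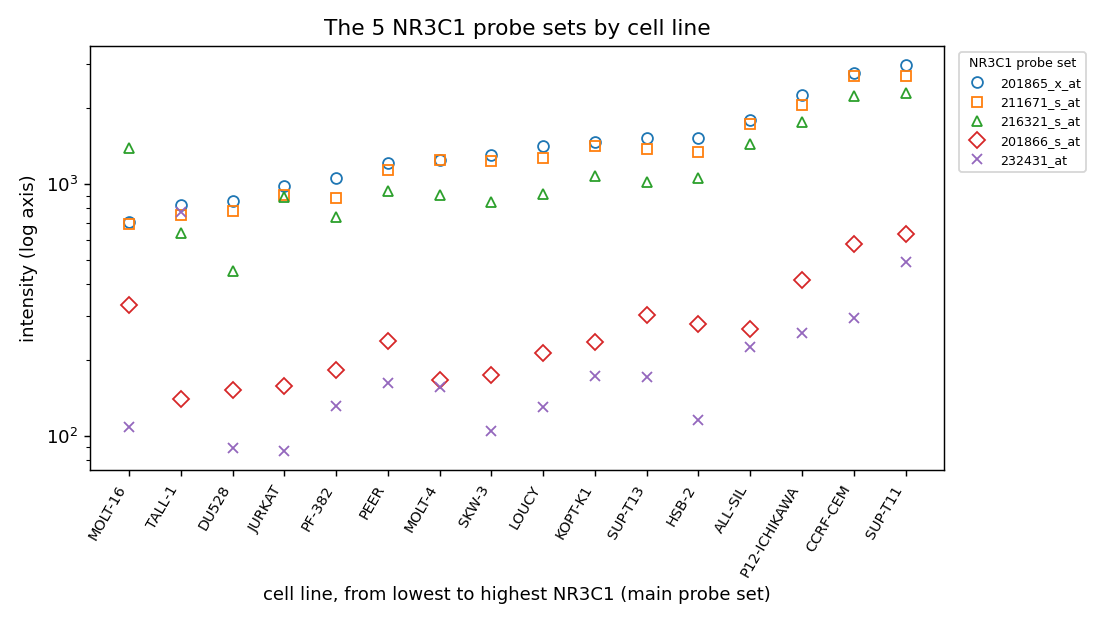
Intensity (log axis) of the 5 NR3C1 probe sets in each of the 16 cell lines, ordered by the main probe set 201865_x_at; each symbol is 1 array. Values are to be compared within a probe set: MOLT-16 is lowest by 201865_x_at (708) but not by 216321_s_at (1397), and TALL-1 stands apart by 232431_at (773).

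FKBP5, the receptor's co-chaperone and a direct response gene, was strongly detected in 15 lines and near background in DU528. DU528 had an intensity of 14.5, below the table median, and the other lines lay between 1624 in JURKAT and 7147 in ALL-SIL. Both other FKBP5 probe sets were also lowest in DU528, at 6.8 and 7.2. Of the remaining lines, SUP-T11 (5665) and SKW-3 (5102) followed ALL-SIL, then LOUCY (4524), TALL-1 (4436), P12-ICHIKAWA (4295) and SUP-T13 (4163). KOPT-K1 (3910), MOLT-16 (3867), CCRF-CEM (3827), HSB-2 (3262) and MOLT-4 (3155) came next, and PEER (2939), PF-382 (2430) and JURKAT were lowest after DU528. The distance from DU528 to JURKAT, 5.75, made up 73.0% of the whole range. The SD was 1.81 and 3.61% of all genes varied as much or more. NR3C1 was also among the lowest in DU528, which ranked 14 to 16 of 16 by its 5 probe sets, but at 854 by the main one it was clearly detected.

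TSC22D3, the GILZ gene, was set apart in LOUCY by both probe sets that detected it. The main probe set, 207001_x_at, read 997 in LOUCY and between 63.7 and 157.5 in the other lines, with DU528 second. Probe set 208763_s_at spread far more, with an SD of 2.33 against 0.81 for the main one. It read 8002 in LOUCY, 1147 in DU528 and 625.5 in HSB-2, while SUP-T11 had 481, PEER 295.5 and MOLT-16 280.4. In the 10 other lines it lay between 75.4 in TALL-1 and 6.0 in KOPT-K1, which was also lowest by the main probe set. The r of these probe sets over the 16 lines was 0.816. The choice between them therefore sets the size of every TSC22D3 difference: the range over the lines was 3.67 log2 units by the main probe set and 8.51 by 208763_s_at, whose lowest values lie far below the table median. The remaining probe set, 235364_at, stayed at or below 48.3 in every line.

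DUSP1, the MAP kinase phosphatase, was low in a few lines and moderate in the rest. It was 5.4 in ALL-SIL and 23.8 in KOPT-K1, both below the table median, followed by P12-ICHIKAWA (66.9) and SUP-T11 (108.5). The highest values were 646.7 in LOUCY, 505 in SKW-3 and 477.7 in JURKAT. SUP-T13 (325), PEER (292), HSB-2 (283.7), MOLT-16 (275.5), PF-382 (274.8), DU528 (229), MOLT-4 (228.6), CCRF-CEM (224.6) and TALL-1 (169.5) lay between. The SD was 1.33, and 8.09% of all genes varied at least as much. This pattern rests on a single probe set, since the other 2 DUSP1 probe sets read at most 55.7 and 67.5 and had r = 0.147 and 0.319 with it, in that order. ALL-SIL thus had the lowest DUSP1 and the highest FKBP5 of all lines.

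ZBTB16, the PLZF gene, was the most variable member, on in a minority of lines and near background in most. It was 4799 in DU528, 2388 in HSB-2, 1251 in PEER, 1020.1 in SUP-T13 and 292 in LOUCY. MOLT-16 followed with 83.5, and the 10 other lines lay between 19.4 and 37.7, all below the table median. The SD was 2.45, and 0.804% of all genes varied at least as much. The line with the highest ZBTB16 was the one with the lowest FKBP5, and 4 of the 5 lines that clearly expressed ZBTB16 were also among the 6 with TSC22D3 clearly detected by 208763_s_at, SUP-T13 (73.3) being the exception.

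**Figure D2:**
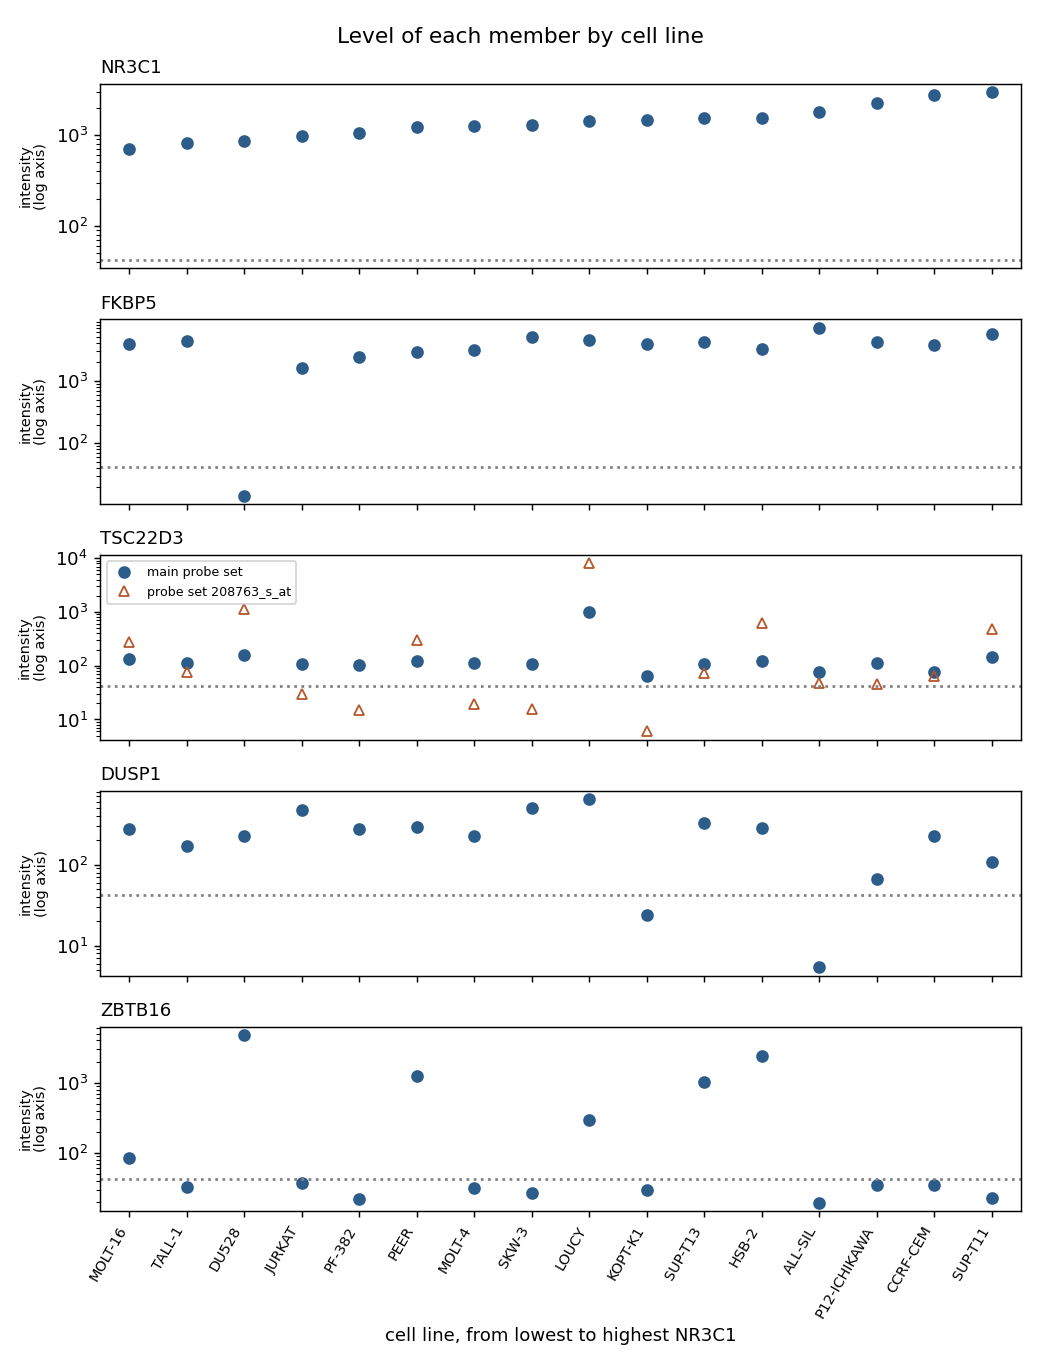
Intensity (log axis) of the 5 measured genes in 16 cell lines, 1 array each, with the lines ordered from lowest to highest NR3C1; the dotted line is the table median (42.4). FKBP5 drops to 14.5 in DU528, TSC22D3 peaks in LOUCY by both probe sets drawn, DUSP1 is lowest in ALL-SIL (5.4), and ZBTB16 is above 4 times the median in 5 lines.

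Whether response genes were higher where the receptor was higher was examined first as a description. Across the 16 lines NR3C1 had r = 0.41 with FKBP5 (rho = 0.50), -0.09 with TSC22D3 (rho = -0.18), -0.23 with ZBTB16 (rho = -0.26) and -0.36 with DUSP1 (rho = -0.36). Without SUP-T11 and CCRF-CEM, the lines farthest from the NR3C1 median, these were 0.42, -0.04, -0.08 and -0.43. The response genes did not rise and fall as one group. TSC22D3 and DUSP1 had r = 0.50 (rho = 0.34), TSC22D3 and ZBTB16 0.30 (rho = 0.58), ZBTB16 and DUSP1 0.35 (rho = 0.50), FKBP5 and ZBTB16 -0.57 (rho = -0.48), FKBP5 and DUSP1 -0.18 (rho = -0.26), and FKBP5 and TSC22D3 -0.07 (rho = -0.06). Several of these rest on 1 line. Without DU528, r of FKBP5 and ZBTB16 was -0.16 and that of FKBP5 and DUSP1 -0.50, and without LOUCY r of FKBP5 and TSC22D3 was -0.46. These values are for main probe sets, and that of TSC22D3 was clearly detected in LOUCY only. Over the processing alternatives described at the end, r ran from 0.05 to 0.61 for TSC22D3 and ZBTB16. It ran from -0.52 to 0.02 for TSC22D3 and FKBP5, -0.56 to -0.08 for NR3C1 and ZBTB16, and 0.40 to 0.59 for NR3C1 and FKBP5.

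**Figure D3:**
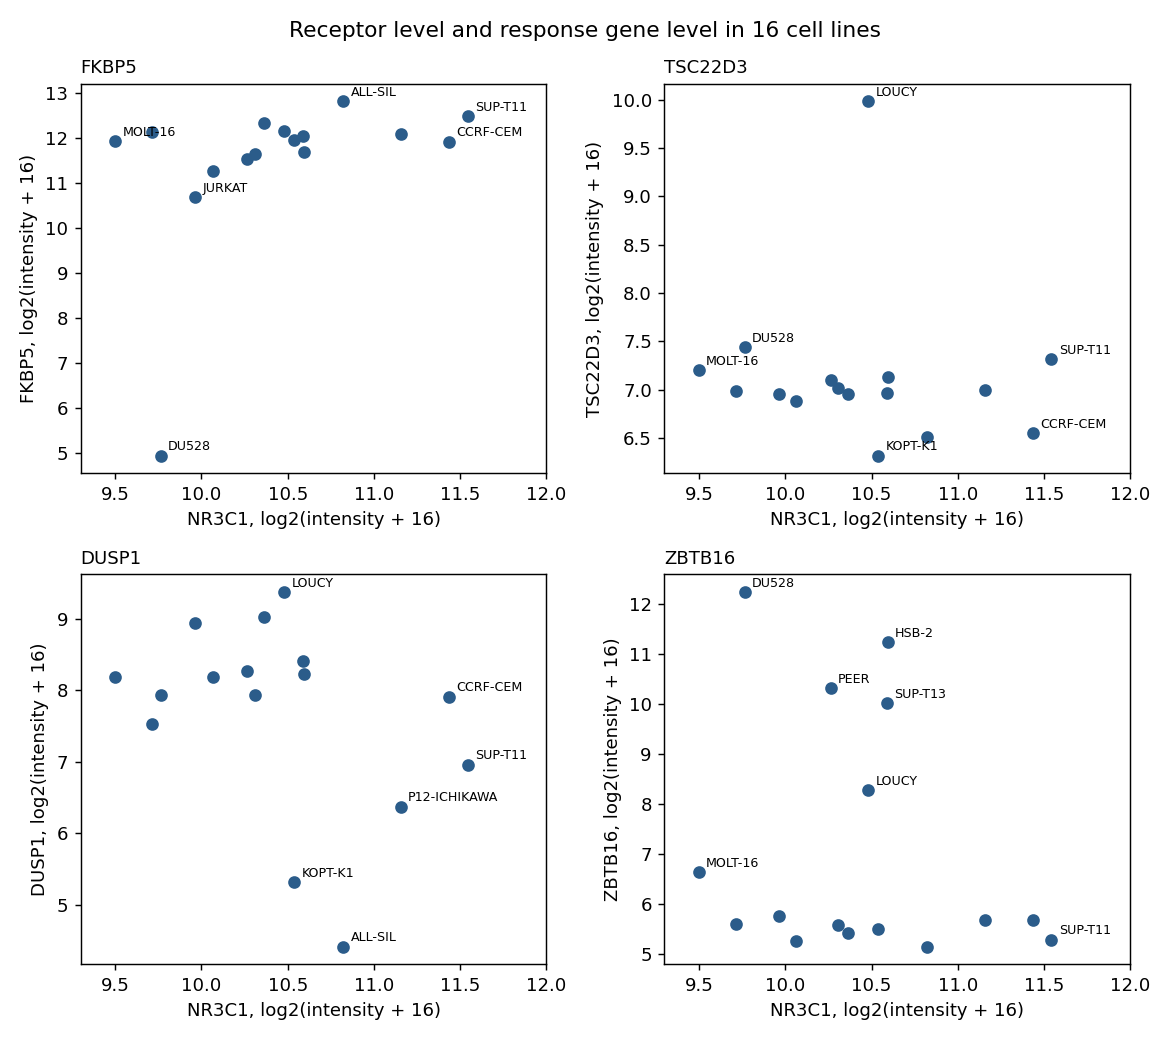
NR3C1 (horizontal) against FKBP5, TSC22D3, DUSP1 and ZBTB16 (vertical) on the log2(intensity + 16) scale; each point is 1 of 16 cell lines and selected lines are named. DU528 lies far below the others for FKBP5 and LOUCY far above for TSC22D3, and no panel shows all 16 lines on 1 slope.

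The relation was then tested in a fit across all genes. Each of 13309 genes above the table median in at least 3 lines was fitted on the level of a member with limma, and p-values were adjusted over all of them. All 5 measured members passed that filter, which asks for less than clear detection. A slope is the change in log2 units per log2 unit of the member, and a gene was called at an adjusted p below 0.05. With NR3C1, 0 genes were called in either direction, so the share called was 0%, and 810 genes had an unadjusted p under 0.05. The nearest member was FKBP5, with a slope of 1.26 ± 0.71 (SE, adjusted p = 0.85). The slope was -0.82 ± 0.53 for DUSP1 (adjusted p = 0.87), -0.97 ± 1.02 for ZBTB16 (adjusted p = 0.91) and -0.13 ± 0.35 for TSC22D3 (adjusted p = 0.97). The errors are wide, and a failure to pass does not show that the genes are independent of the receptor.

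Among members there were 20 such fits, each gene on each other, and 0 were called. An unadjusted p under 0.05 was reached by 4, which come from 2 pairs. The slope of FKBP5 on ZBTB16 was -0.42 ± 0.15 (SE, unadjusted p = 0.013, adjusted p = 0.19 with limma), which does not pass. DUSP1 on TSC22D3 had 0.82 ± 0.36 (SE, unadjusted p = 0.038, adjusted p = 0.40 with limma), which does not pass either.

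The genes most like NR3C1 over the 16 lines, among 13309, were RTN4R, a receptor of the NOGO pathway (r = 0.82), the histone gene H2AC4 (0.80), ELK4, an ETS factor (0.79), BACH2, a repressor of lymphocyte differentiation (0.75), and RIPOR2 (0.74). The most opposed were PKNOX2 (r = -0.81), TCTN3 (-0.78) and AMMECR1L (-0.78). BACH2 had the widest range, from 2106 in SUP-T11 to 3.5 in DU528. None of these 8 genes was called.

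TSC22D3 had 120 followers, and the count depended on LOUCY. Of the genes tested, 0.503% rose and 0.398% fell with it. Those most like it were HOXB9 (r = 0.97), KCNQ1-AS1 (0.93), HOXB-AS3 (0.92), DEPTOR, an inhibitor of mTOR (0.91), and NYNRIN (0.90), each highest in LOUCY. Most opposed were the histone methyltransferase gene EZH2 (r = -0.96), the RNA-binding protein gene QKI (-0.95) and the growth driver MYC (-0.94), each lowest in LOUCY, at 12.2, 11.1 and 23.6. Without LOUCY 0 genes were called, and r was 0.72 for HOXB9, 0.32 for NYNRIN, -0.56 for EZH2 and -0.39 for MYC. When probe sets of the _x_at kind were left out, 208763_s_at stood for TSC22D3 and 138 genes were called, 32 of them among the 120. Without LOUCY that fit called 9, of which 0 were among the 120.

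FKBP5 had 95 followers, with 0.421% of genes rising and 0.293% falling with it, and without DU528 there were 0. Those most like it were PHGDH, an enzyme of serine synthesis (r = 0.96; 23.5 in DU528 and at least 2370 elsewhere), MAGEH1 (0.96; 12.8 in DU528), MSANTD4 (0.94), SH3KBP1 (0.94) and GSTP1, a detoxifying enzyme (0.93; 66.5 in DU528 and at least 3323 elsewhere). Most opposed were SUCNR1, the succinate receptor (r = -0.93; 3269 in DU528 and at most 52.5 elsewhere), FCER1A (-0.93) and ZNF689 (-0.92). Without DU528, r was 0.72 for MAGEH1, 0.44 for PHGDH, 0.02 for SH3KBP1, -0.21 for GSTP1 and -0.31 for MSANTD4. Of the opposed genes, ZNF689 kept r = -0.72 without DU528, while SUCNR1 had -0.11 and FCER1A -0.25.

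ZBTB16 had 90 followers spread over several lines, 0.518% of genes rising and 0.158% falling with it. The most similar genes were WFDC1 (r = 0.93), GCSAML (0.93), HSH2D, an adaptor of lymphocyte signalling (0.92), a probe set annotated to MIR146A that does not measure the mature microRNA (0.91), and SIGLEC6, a sialic acid receptor (0.91). GCSAML was 2986 in DU528, 1343 in LOUCY, 997 in HSB-2, 439 in PEER and 205 in SUP-T13, and no other line exceeded 41.4. HSH2D was at least 350.3 in those 5 lines and at most 68.2 elsewhere. Leaving out any 1 line kept r of these 5 genes at 0.877 or above. Most opposed were ANKRD46 (r = -0.90), FAM135A (-0.87) and POFUT1 (-0.86), which fucosylates NOTCH receptors and was not called. Without DU528 the fit called 18 genes and without PEER 201. ZBTB16 also ran against the ACTB ratio (r = -0.67 over 16 lines), and with that ratio as a covariate the fit called 5 genes, against 90 without it. The 5 lines that clearly expressed ZBTB16 had the lowest ratios, from 1.44 in DU528 to 1.54 in HSB-2. The next was 1.587 in SKW-3. Expression of ZBTB16 and a low ratio therefore cannot be told apart in these lines.

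DUSP1 had 10 followers, 0.0751% of genes rising and 0% falling with it. The genes most like it were MMADHC (r = 0.89), GALNT1 (0.88), PLEKHA3 (0.86), B4GALT6 (0.85) and ANO10 (0.85), each lowest in ALL-SIL, and all but PLEKHA3 were called. RXRB, ZC3H3 and CPSF1 were most opposed (r = -0.84, -0.84 and -0.80), each highest in ALL-SIL. The glycosyltransferase genes GALNT1 and B4GALT6 were at 7.5 and 32.8 in ALL-SIL and at 11.3 and 50.4 in KOPT-K1. GALNT1 was also at 13.8 in P12-ICHIKAWA, where B4GALT6 was 2758. The count was 0 without ALL-SIL, LOUCY, PEER or PF-382 and 19 without KOPT-K1, so it depends on which lines are in.

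**Figure D4:**
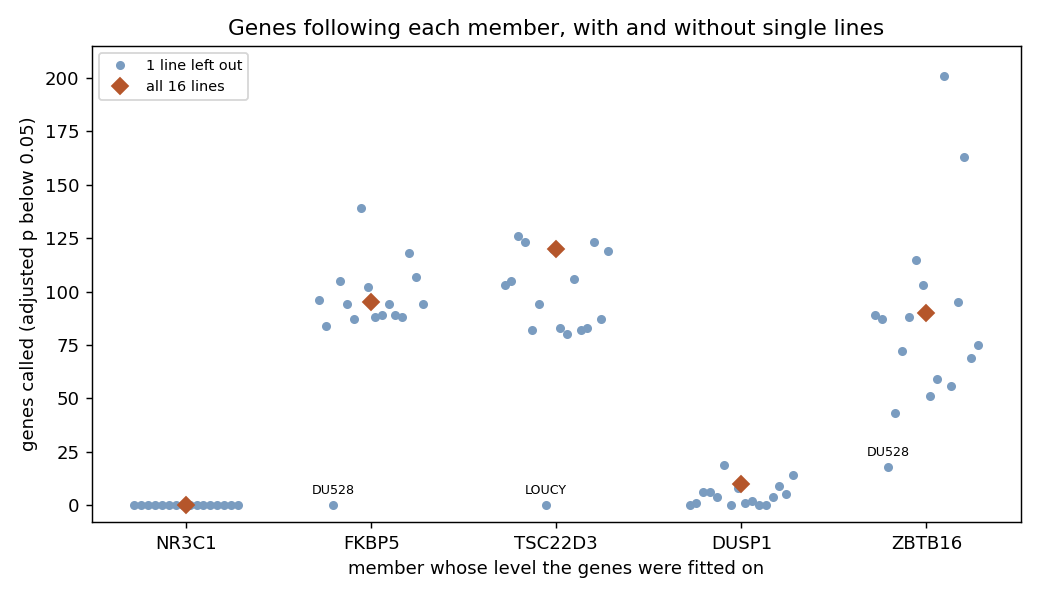
Number of genes called (adjusted p below 0.05, limma) when fitted on the level of each member, over all 16 lines (diamonds) and with each line left out in turn (circles); lines whose removal gives the lowest count are named for 3 members. NR3C1 stays at 0, TSC22D3 has 0 without LOUCY against 120 with all lines, FKBP5 0 without DU528 against 95, and ZBTB16 18 without DU528 against 90.

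The wider receptor pathway was described with 8 lists. The enzymes that make or remove active hormone, HSD11B1 and HSD11B2, never reached 141 and 62.5, the mineralocorticoid receptor gene NR3C2 peaked at 157.9 in MOLT-16, and the steroid-exporting pump gene ABCB1 at 157.3 in DU528. H6PD, which supplies HSD11B1 with reducing power, was clearly detected in 7 lines. In contrast, all 14 measured chaperone genes were clearly detected in all 16 lines, with a median SD of 0.25. BAG1, a co-chaperone that can restrain the receptor, ranged most, from 1026 in SUP-T11 to 5005 in ALL-SIL. FKBP4, the partner that opposes FKBP5 in the receptor complex, was highest in MOLT-16 (3209). So were most of the measured chaperone genes, HSPA4, STUB1 and STIP1 among them. With NR3C1, 0 of the 14 were called (share of all genes 0%). Their slopes were all below 0, with a median of -0.07 against -0.02 over all genes, of which 45.6% had a slope above 0. Most of these slopes were smaller than their SE. MOLT-16 was also lowest in NR3C1 by the main probe set, though not by every NR3C1 probe set. Whether the shared sign rests on this line was not tested.

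Coregulators were mostly stable: 15 of 18 measured were clearly detected in every line and 2 had an SD above 1. An SD above 1 was found for 12.5% of all genes and 17.8% of those passing the filter. NRIP1, a corepressor of nuclear receptors, reached 2530 in TALL-1 but only 9.0 in KOPT-K1, and the coactivator gene PPARGC1B reached 528 in JURKAT but 11.2 in TALL-1. None of 17 tested was called in a fit on any of the 5 members. The shares of all genes called were 0% with NR3C1, 0.503% rising and 0.398% falling with TSC22D3, 0.421% and 0.293% with FKBP5, 0.518% and 0.158% with ZBTB16, and 0.0751% and 0% with DUSP1, so a count of 0 in a list of this size is near the background and is no result about these genes.

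Other genes that glucocorticoid can induce differed widely between lines. Of 36 measured, 13 had an SD above 1, against 12.5% of all genes and 17.8% of those passing the filter. The median SD of the list was 0.79. TXNIP, which restrains glucose uptake, was 3214 in DU528 and 19.5 in JURKAT. ANXA1, an anti-inflammatory annexin, was 6697 in DU528 and 39.2 in ALL-SIL, and SLA, an adaptor that dampens receptor signals, was 9291 in DU528 and 38.4 in SUP-T11. SOCS1 was 4626 in HSB-2 and MAP3K8 2832 in SUP-T13. Of 33 tested, 0 were called with NR3C1, TSC22D3 or DUSP1, counts near the shares of all genes called (0% with NR3C1, 0.503% rising and 0.398% falling with TSC22D3, 0.0751% rising and 0% falling with DUSP1).

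With FKBP5, CXCR4 alone rose (slope 0.46 ± 0.09, SE, adjusted p = 0.016 with limma; share of all genes rising 0.421%), and with ZBTB16 it fell (-0.32 ± 0.07, SE, adjusted p = 0.049). This chemokine receptor gene was 570.4 in DU528, 2165 in HSB-2 and at least 2967 elsewhere, and neither call held without DU528. MAP3K8, a kinase upstream of MAP kinases, rose with ZBTB16 (slope 0.70 ± 0.15, SE, adjusted p = 0.046), a call lost in 16 of 28 alternatives, with slopes above 0 in all of them. The call of CXCR4 with ZBTB16 was lost in 17 of 28.

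Immediate early genes, which answer serum, stress and kinase signals within minutes, are background to DUSP1, itself such a gene. Of 34 measured, 17 had an SD above 1, against 12.5% of all genes and 17.8% of those passing the filter. KLF2, a factor of lymphocyte quiescence, was 9126 in SUP-T11 and 9.7 in SKW-3. DUSP6, another MAP kinase phosphatase, reached 10799 in HSB-2 against 48.5 in SUP-T11, and the activation marker CD69 was 5464 in DU528 and 7.4 in ALL-SIL. None of 29 tested was called with DUSP1 (shares of all genes 0.0751% rising and 0% falling), a count near the background. A slope above 0 was found for 17 (58.6%, against 54.9% of all genes). With ZBTB16, 26 of 29 had a slope above 0 (89.7%, against 55.5% of all genes), and with TSC22D3 22 (75.9%, against 52.6%). DU528, the line highest in ZBTB16, was also highest for several of these genes, among them FOS, CD69 and PPP1R15A. It was lowest for others, among them IER3 (22.9, against 2019 in HSB-2). With ZBTB16 1 was called (share of all genes rising 0.518%). It was PPP1R15A, a stress phosphatase subunit (slope 0.18 ± 0.04, SE, adjusted p = 0.046 with limma), a call lost in 17 of 28 alternatives. With FKBP5, lowest in DU528, 5 of 29 had a slope above 0 (17.2%, against 46.4% of all genes), and 1 was called (share of all genes falling 0.293%). FOS fell with FKBP5 (slope -0.62 ± 0.12, SE, adjusted p = 0.022 with limma). It was 752 in DU528 and at most 77.0 elsewhere, and the call was lost without DU528.

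Clock genes stand in for the pathway of PER1. Of 18 measured, 6 had an SD above 1, against 12.5% of all genes and 17.8% of those passing the filter. None of the 18 tested was called with any member, which is again near the shares given for the coregulators (at most 0.518% in 1 direction). BHLHE40 was 5302 in HSB-2 and 3.5 in SUP-T11, RORA 2597 in SUP-T13 and 11.1 in MOLT-16, BMAL1 1308 in SUP-T13 and 4.6 in MOLT-16, NFIL3 2248 in LOUCY and 10.2 in TALL-1, and PER3, a relative of PER1, 1203 in LOUCY and 6.8 in KOPT-K1. RORA and BMAL1, an activator and its target in the clock loop, shared their highest and lowest lines.

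Innate-like T and NK genes, the setting in which ZBTB16 is known to act, gave 2 calls of 14 tested with it, both rising (share of all genes rising 0.518%). Of 19 measured, 12 were clearly detected in some line. Slopes on ZBTB16 were above 0 for 11 of the 14 tested (78.6%, against 55.5% of all genes). NCR3, the NKp30 receptor gene, had a slope of 0.53 ± 0.08 (SE, adjusted p = 0.0067 with limma), a call lost in 3 of 28 alternatives. It was 622 in DU528, 586 in SUP-T13, 540 in HSB-2, 504 in LOUCY and 367 in PEER. These are all 5 lines that express ZBTB16, and they also had the lowest ACTB ratios. Among the others NCR3 was clearly detected in CCRF-CEM (239) and SKW-3 (180). KLRB1, the CD161 gene, had a slope of 0.87 ± 0.17 (SE, adjusted p = 0.028), a call lost in 7 of 28 alternatives. DU528 had 7249, SUP-T13 3357 and HSB-2 282, and no other line exceeded 20.7, PEER and LOUCY included. With TSC22D3, 1 of the 14 was called (share of all genes rising 0.503%). KLRG1 rose with TSC22D3 (slope 0.90 ± 0.19, SE, adjusted p = 0.038 with limma), a call lost in 13 of 29 alternatives with the slope turned in 2 more. KLRG1 was at 483 in LOUCY and at most 94.5 elsewhere, and its slope was -0.20 without LOUCY.

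Genes with a known part in glucocorticoid resistance of lymphoid leukemia were described last. BCL2, which blocks cell death, was 4162 in LOUCY and 13.9 in SUP-T11, and PMAIP1, the NOXA gene, which promotes it, had the same highest and lowest lines, at 10838 and 15.7. IL7R, the interleukin-7 receptor gene, was 3879 in TALL-1 and 15.9 in HSB-2. The cell cycle inhibitor CDKN1A was 3238 in DU528 and 3.1 in ALL-SIL. Of the 18 measured, 8 had an SD above 1, against 12.5% of all genes and 17.8% of those passing the filter. None of the 18 tested was called in a fit on any of the 5 members, near the shares given for the coregulators (at most 0.518% in 1 direction).

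Beyond the gene lists, HBB, an erythroid marker, rose with TSC22D3 (slope 0.87 ± 0.16, SE, adjusted p = 0.022 with limma; share of all genes rising 0.503%). It was at 279.7 in LOUCY and 202.8 in DU528 and at most 47.2 elsewhere. Of the 2 erythroid markers tested, the other, KLF1, was not called and had a slope below 0. CD3G, a T-cell marker, rose with FKBP5 (slope 0.40 ± 0.08, SE, adjusted p = 0.023 with limma; share of all genes rising 0.421%), at 667 in DU528 and at least 1472 elsewhere. It was the 1 call among 9 T-cell markers tested, of which 7 had a slope above 0 (77.8%, against 46.4% of all genes). Neither call held without the line at the extreme of the member, although the slope of HBB was 1.14 without LOUCY. The slope of CD3G was 0.15 without DU528.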

How the data were processed

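RNA of 16 T-ALL lines was measured on Affymetrix U133 Plus 2.0 arrays. The authors deposited probe set intensities on a linear scale, with software and scaling not given in the sources used. The 54675 probe sets held 62 controls, 41091 with 1 gene, 1801 with several and 11721 unlisted. Values were analysed as log2(intensity + 16) without further normalization. All lines form 1 group, and the number of arrays limits the precision.

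Genes were fitted on a member's level with limma 3.58.1 (lmFit, eBayes with trend and robust) in R 4.3.3, among genes whose 3rd highest value exceeded the table median, with Benjamini-Hochberg adjustment over all tested genes, and tested on simulated data. Correlations are descriptions without a test. Python 3.11.15, numpy 2.4.6, pandas 2.3.3 and matplotlib 3.10.9 did the rest. Alternatives changed the pseudocount, normalization, probe set, filter, lines, covariate and moderation. The fit on PER1 was not run. Members and lists were chosen with earlier results of these data known. Named genes are the members, the 5 most and 3 least correlated genes per member, at most 6 of each list by range, and called list genes.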

Additional observations from a re-analysis of the deposited data

How the results depend on the processing

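The count of genes following NR3C1 stayed at 0 under every alternative except its probe set with the highest SD, which gave 2, and the count of members called on another member was 0 under all of them. Genes following TSC22D3 numbered 120, against 223 with a pseudocount of 64, 225 without the filter, 53 with the ACTB ratio as covariate, 0 without the 2 farthest lines, 0 with ranks and 9 without both _x_at probe sets and LOUCY; leaving out 1 line gave 0 (LOUCY) to 126. Genes following FKBP5 numbered 95, against 61 with the mean of all probe sets, 176 without the filter, 0 without the 2 farthest lines and 0 with ranks, and 0 (DU528) to 139 with 1 line left out. Genes following ZBTB16 numbered 90, against 152 with a pseudocount of 64, 10 without the 2 farthest lines, 5 with the ACTB covariate and 0 with ranks, and 18 (DU528) to 201 (PEER) with 1 line left out, including 43 without HSB-2, 51 without MOLT-4, 59 without P12-ICHIKAWA, 56 without PF-382 and 163 without SUP-T11. Genes following DUSP1 numbered 10, against 0 with a pseudocount of 64, 6 after quantile normalization, 4 after median centring, 2 with the mean of all probe sets, 5 with the ACTB covariate, 0 without the 2 farthest lines and 0 with ranks, and 0 to 19 with 1 line left out. Slopes that turned were ELK4 on NR3C1 with the probe set of highest SD (-0.64), GSTP1 on FKBP5 (-0.23) and MSANTD4 on FKBP5 (-0.062) without the 2 farthest lines, MIR146A on ZBTB16 with a pseudocount of 1 (-0.034), and KLRG1 on TSC22D3 without _x_at probe sets and LOUCY (-0.023). With 1 line left out, slopes ran from -0.20 to 0.999 for KLRG1, -0.13 to 0.86 for GSTP1 and -0.12 to 0.74 for MSANTD4. The cause of these changes was not tested, beyond the lines left out. The setting without _x_at probe sets and LOUCY was chosen after seeing the data, as was leaving out most single lines. The planned fit on PER1 was not run, since no probe set names it alone. No paired analysis was possible because each line is 1 sample of 1 group.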

Other observations

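Among 5226 probe sets that the annotation lists under no gene, 227762_at had r = 0.99 with ZBTB16 over 16 lines and 228854_at had r = 0.99. Probe set 227762_at was highest in DU528, at 3288, and 228854_at also, at 3814. Leaving out any 1 line kept both values of r at 0.98 or above. No gene name is given to either here.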
